A study of Mus musculus with 8 samples.

Results

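The measurements describe 10 mouse genes around histone H3.3 and the methylation of its lysine 36: Zmynd11, Zmynd8, H3f3a, H3f3b, Setd2, Nsd1, Hira, Atrx, Daxx and Asxl1. They were taken by symbol from the 23304 gene symbols in each count table, and all 10 were found and passed the filter on low counts. RNA sequencing covered 8 libraries of NIH3T3 cells, an immortalised mouse embryonic fibroblast line of Swiss albino origin, although the extraction protocol calls the cells MEFs. By their labels the libraries form 4 groups of 2: unedited wild-type (WT) cells with no agent at 0 h, ZMYND11 CRISPR knockout (KO) cells with no agent at 0 h, WT cells after 2 h of recombinant mouse interferon beta at 100 units/ml, and KO cells after the same 2 h. The edited position, the number of knockout clones and the origin of the 2 libraries in each group (separate cultures or one) are unstated in the sources read, so the p-values rest on the spread among libraries, which may be technical.

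Nucleosomes that carry the variant histone H3.3 are laid down outside DNA replication, by the HIRA complex in transcribed genes and by DAXX with ATRX at heterochromatin and telomeres. NSD1 adds the first methyl groups to lysine 36 of histone H3 and SETD2 adds the third while RNA polymerase II elongates, and ZMYND11 reads trimethylated lysine 36 on H3.3 through its bromodomain and PWWP module and restrains elongation. In fibroblasts interferon beta acts through a transcription factor complex that holds STAT2, on genes with an interferon-stimulated response element, Ifit1 among them.

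The level of Zmynd11 reads goes against the genotype labels: it was as high in the libraries labelled KO 0 h as in those labelled WT 0 h, and low in both groups labelled 2 h. Group names below are therefore labels, and each direction is one between labelled groups. Its counts cover the gene as a whole, so they bear on the edit only as far as an edit lowers the transcript. Ifit1, an interferon-induced RNA-binding protein, followed the other label: 1.22 and 1.38 CPM (read counts scaled to the library's depth) in WT 0 h, 196 and 229 in KO 0 h, 1.73 and 3.95 in WT 2 h, and 396 and 380 in KO 2 h.

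Libraries held 13671013 to 21299120 reads in genes, so that 1 read stood for 0.0460 to 0.0700 CPM. In 7 of the 8, between 14847 and 15945 symbols had a read, while KO 0 h replicate 2 had 17498 and stands apart. Its share of reads in no gene was 17.3%. Other 0 h libraries had 12.8% to 13.3%, and 2 h libraries 15.8% to 17.2%. The summed level of 11 fibroblast markers lay at 41451 to 46229 CPM under the 0 h labels and at 18652 to 20590 under the 2 h labels, with Lum at 0 to 0.147 CPM and Fn1 at 10481 to 12447. Over the 10 tested, the median log2 fold change of 2 h against 0 h was -1.47 in the WT labels and -1.60 in the KO labels. Col1a2 lay at 10769 to 11794 CPM under the 0 h labels and at 1892 to 2132 under the 2 h labels. Thy1 went the other way, at 95.5 to 107 CPM against 126 to 130. Sums for endothelium (5 markers, led by Vwf) were 2.41 to 5.08 against 12.2 to 14.7, and those for skeletal muscle (4 markers, led by Des) 2.00 to 2.60 against 13.8 to 16.4. Those for leukocytes (6 markers, led by Lyz2 at 20.4 to 51.5) were 36.2 to 72.4 against 41.4 to 75.3. The leukocyte sums of single libraries were 46.4 and 72.4 in KO 0 h and 41.4 and 75.3 in KO 2 h, replicate 2 being the higher. In the WT labels they were 36.2 and 36.8 at 0 h, and 54.7 and 56.1 at 2 h. Epithelial sums (6 markers) ran from 3.03 to 7.56 and neural sums (4 markers) from 0.489 to 2.47, and no marker was at 0 in all 8 libraries. Epcam, Krt8 and Krt18 stayed at or below 0.2 CPM, Myod1 at or below 0.350 and Pecam1 at or below 0.607, and Ptprc ran from 2.39 to 6.55. The part of these shifts in the differences between 0 h and 2 h labels was not tested. Scaling by library size alone moved the median log2 fold change of all genes by 0.14 in WT 2 h against 0 h, by 0.15 in the KO labels, by 0.13 in KO 2 h against WT 0 h and by -0.16 in KO 0 h against WT 2 h. The share of calls that were higher went from 49.2% to 61.2%, from 49.0% to 61.4%, from 49.5% to 60.1% and from 52.2% to 38.4% in those comparisons, and from 67.5% to 55.4% in KO 0 h against WT 0 h.

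Each difference was called at an adjusted p below 0.05 from edgeR's quasi-likelihood test with Benjamini-Hochberg adjustment over 12807 genes. Between WT 2 h and WT 0 h, 3 of the 10 genes were higher and 4 lower, where 61.2% of all genes were called, 30.1% higher and 31.1% lower. Between KO 2 h and KO 0 h, 2 were higher and 5 lower against 61.1% of all genes, 30.0% higher and 31.2% lower. In both, the share called among the 10 was near that of all genes. Between the genotype labels at 0 h, 3 genes (H3f3a, Atrx and Daxx) were higher in KO and 0 lower, where 3.92% of all genes were called, 2.65% higher and 1.27% lower. At an unadjusted p below 0.05 the count at 0 h was 4 higher and 0 lower, and DESeq2 gave 3 and 0. Between the genotype labels at 2 h, 1 gene (Daxx) was higher in KO and 0 lower, where 1.60% of all genes were called, 1.59% higher and 0.00781% lower, and the same counts came from an unadjusted p below 0.05 and from DESeq2.

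Across both labels, KO 2 h against WT 0 h gave 2 genes higher and 5 lower (62.3% of all genes called, 30.8% higher and 31.4% lower), and KO 0 h against WT 2 h gave 6 higher and 1 lower (60.3% called, 31.5% higher and 28.8% lower). The test of whether the 2 h minus 0 h change differed between genotype labels, KO minus WT, called 0 of the 10 genes in edgeR, where 0.133% of all genes were called, 0.0547% higher and 0.0781% lower. At an unadjusted p below 0.05 it named 2, H3f3a and Atrx, both lower, and DESeq2 called 1, H3f3a. Comparisons that have a group in common share its libraries.

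**Figure D1:**
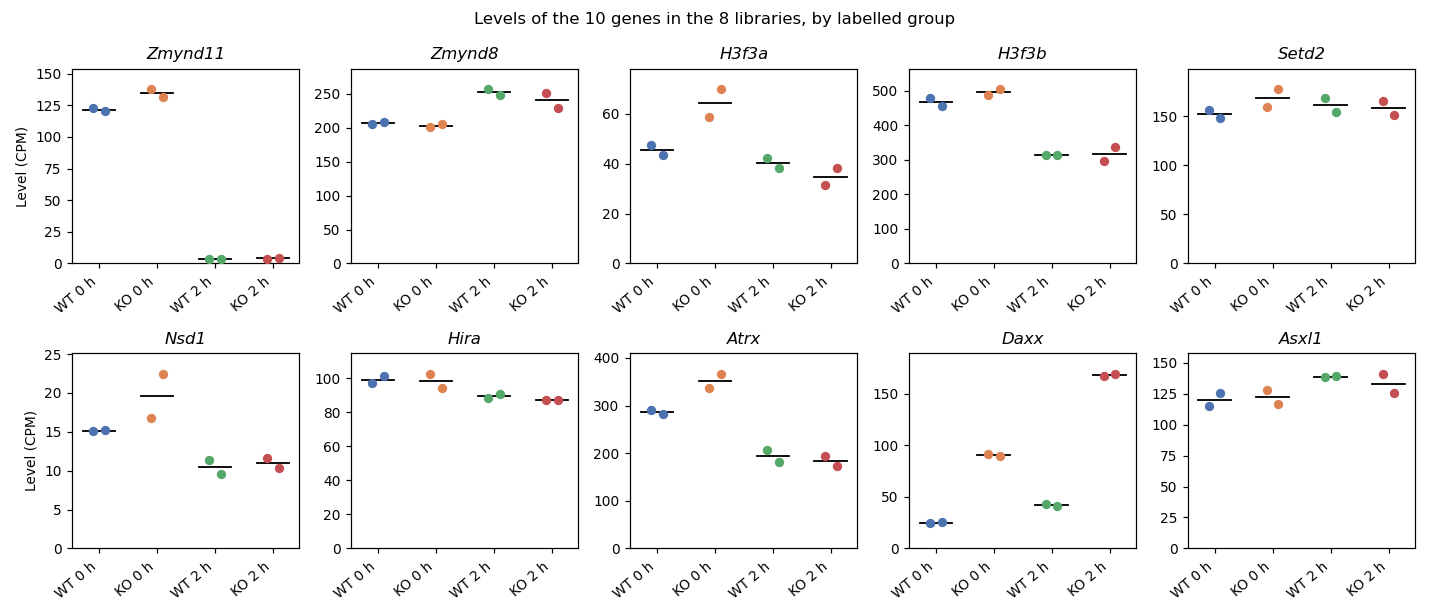
Level of each of the 10 genes in CPM (vertical axis, linear, from 0) in the 8 libraries (points) by labelled group (horizontal axis), with a bar at the mean of each 2. Zmynd11 lies at 120 to 137 CPM under both 0 h labels and at 3.18 to 4.69 under both 2 h labels, while Daxx climbs from 24.7 in WT 0 h to 169 in KO 2 h.

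Zmynd11 (Entrez Gene 66505, minus strand of chromosome 13 at 9684833 to 9765330 in GRCm38, GENCODE M21) encodes the reader of trimethylated H3.3 lysine 36. Its level was 123 and 120 CPM in WT 0 h, 137 and 131 in KO 0 h, 3.18 and 3.61 in WT 2 h, and 3.31 and 4.69 in KO 2 h. Both 0 h groups were high and both 2 h groups low, with no overlap between the times. The level left under the 2 h label was 2.80% of that at 0 h in the WT labels and 2.98% in the KO labels, and rested on 59 to 72 reads a library against 1967 to 2511 at 0 h. In a bulk library, fewer cells with the transcript and less of it in each cell cannot be told apart.

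The fold change of Zmynd11 from 0 h to 2 h on the log2 scale was -5.16 in the WT labels (SE 0.13, edgeR adjusted p = 1.27e-18) and -5.11 in the KO labels (SE 0.13, edgeR adjusted p = 2.24e-18). By size these rank 173rd and 137th among the 12807 genes tested, and the difference between the changes was 0.05 (95% interval -0.38 to 0.48, edgeR adjusted p = 0.952). KO against WT labels differed by 0.15 at 0 h (SE 0.09, adjusted p = 0.364) and by 0.19 at 2 h (SE 0.19, adjusted p = 1), both from edgeR and neither called. In descending order the groups were KO 0 h, WT 0 h, KO 2 h and WT 2 h, of which the first pair and the last pair did not differ beyond the test.

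The window from 250 bases before to 50 bases after 1 of the 4 RefSeq starts of Zmynd11 (GRCm38.p6) is shown because this gene has the largest change of the 10, and this start was chosen as the farthest upstream. No base is capitalised, since it holds neither motif searched.
Zmynd11 chr13:9765272-9765571 (-): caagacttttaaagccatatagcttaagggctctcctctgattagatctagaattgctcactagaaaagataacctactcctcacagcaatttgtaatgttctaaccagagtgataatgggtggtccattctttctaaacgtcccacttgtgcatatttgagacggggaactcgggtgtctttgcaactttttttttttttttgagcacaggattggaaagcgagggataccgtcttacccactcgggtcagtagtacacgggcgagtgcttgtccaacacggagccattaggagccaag

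The genes on either side of Zmynd11 on the chromosome were compared with it. Of 10 such neighbours, 5 on each side by RefSeq gene order, 7 had enough reads to test. Chrm3, the nearest on one side, had no read in any library, and Ryr2 and Actn2 had at most 7 and 5 reads in a library. Dip2c, the nearest on the other side, stood at 46.9 and 47.2 CPM in WT 0 h, 49.1 and 52.2 in KO 0 h, 58.5 and 61.7 in WT 2 h, and 57.0 and 59.9 in KO 2 h. It was higher at 2 h in the WT labels (0.35 on the log2 scale, SE 0.09, edgeR adjusted p = 0.0015), and the KO labels gave 0.21 (adjusted p = 0.0514).

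In the WT labels 2 of the 7 neighbours were higher at 2 h (Gtpbp4 and Dip2c) and 3 lower (Idi1, Mtr and Heatr1). In the KO labels 0 were higher and 3 lower, with 1 higher at an unadjusted p below 0.05 and 0 by DESeq2. Of all genes tested, 30.1% were higher and 31.1% lower in the WT labels, and 30.0% and 31.2% in the KO labels. Idi1, which encodes an isomerase of the isoprenoid pathway, was lower under both 2 h labels as Zmynd11 was, though by less: -1.71 (SE 0.37) and -2.63 (SE 0.40), from 4.23 to 5.01 CPM in the 0 h libraries to 0.490 to 2.00 in the 2 h libraries, with no overlap. Mtr in the WT labels was no longer called without WT 0 h replicate 1 (-0.29, adjusted p = 0.073) or WT 2 h replicate 2 (-0.22, adjusted p = 0.135), and Heatr1 in the KO labels without KO 2 h replicate 2 (-0.14, adjusted p = 0.213). Between genotype labels 0 of 7 were called at either time by edgeR, at an unadjusted p below 0.05 or by DESeq2. By edgeR, 3.92% of all genes were called between these labels at 0 h and 1.60% at 2 h.

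**Figure D2:**
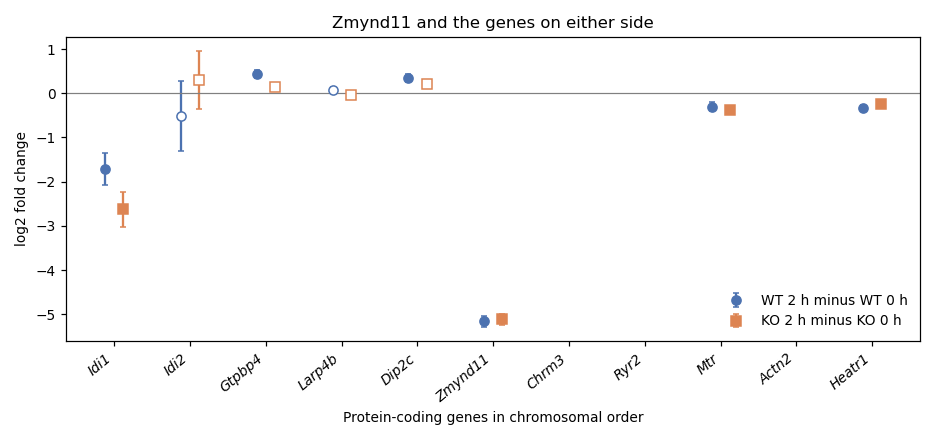
Log2 fold change of 2 h against 0 h (vertical axis) for Zmynd11 and the protein-coding genes beside it in chromosomal order (horizontal axis, not to scale), circles for WT labels and squares for KO labels, bars the standard error, filled where the edgeR adjusted p is below 0.05. Zmynd11 lies at -5.16 and -5.11, while its nearest tested neighbour Dip2c lies at 0.35 and 0.21. Genes without a mark had too few reads to test.

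Genes that track Zmynd11 most closely over the 8 libraries were ranked by the root mean square difference of log2 CPM, each centred on its own mean, among 11552 genes of at least 1 CPM on average. The closest were Scg2 (a secretory granule protein, 0.18), Mccc2 (a subunit of an enzyme of leucine breakdown, 0.26), Nxf3 (0.28), Ptgfr (the prostaglandin F receptor, 0.28) and Igf2 (a fetal growth factor, 0.31). Scg2 had mean levels of 91.2 CPM in WT 0 h and 93.2 in KO 0 h, against 3.01 in WT 2 h and 2.61 in KO 2 h. Under the 2 h labels the means of Mccc2, Nxf3 and Igf2 were 0 to 0.081 CPM. That is near the floor of the counts, so the size of their fall is uncertain. These likenesses describe 8 libraries that share their labels and sequencing.

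Zmynd8 (Entrez Gene 228880, minus strand of chromosome 2 at 165784152 to 165899016), a related bromodomain, PWWP and MYND protein that also binds histone H3 marks, was slightly higher under the 2 h labels. Its level was 206 and 208 CPM in WT 0 h, 201 and 205 in KO 0 h, 256 and 248 in WT 2 h, and 251 and 230 in KO 2 h. No 0 h library reached any 2 h library. The log2 fold change was 0.28 in the WT labels (SE 0.07, edgeR adjusted p = 0.00212) and 0.24 in the KO labels (SE 0.07, adjusted p = 0.00717). The KO change was no longer called without KO 2 h replicate 1 (0.20, adjusted p = 0.0676). The genotype labels differed by -0.03 at 0 h and -0.07 at 2 h, neither called, so WT 2 h and KO 2 h, and likewise WT 0 h and KO 0 h, did not differ beyond the test. Neo1, Tle1 and Ankrd11 were the genes closest to it over the 8 libraries, at 0.02 to 0.03 on the same scale.

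The replication-independent histone H3.3 is made from a pair of genes that encode the same protein. H3f3b (Entrez Gene 15081, minus strand of chromosome 11 at 116021912 to 116027962) was the more abundant: 479 and 456 CPM in WT 0 h, 487 and 504 in KO 0 h, 313 and 315 in WT 2 h, and 295 and 338 in KO 2 h. All 2 h libraries lay below all 0 h libraries. The log2 fold change was -0.57 in the WT labels (SE 0.08, edgeR adjusted p = 1.01e-06) and -0.65 in the KO labels (SE 0.08, edgeR adjusted p = 1.77e-07). The genotype labels differed by 0.08 (adjusted p = 0.576) at 0 h and 0.01 (adjusted p = 1) at 2 h.

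H3f3a (Entrez Gene 15078, minus strand of chromosome 1 at 180800832 to 180813943) moved otherwise under the KO 0 h label. Its level was 47.6 and 43.6 CPM in WT 0 h, 58.9 and 69.8 in KO 0 h, 42.3 and 38.3 in WT 2 h, and 31.3 and 38.2 in KO 2 h. The KO 0 h libraries were highest with no overlap, and WT 0 h, WT 2 h and KO 2 h followed in that order, also without overlap. WT 2 h and KO 2 h lay close, at 38.3 and 38.2 CPM in their nearest libraries. KO against WT labels at 2 h gave -0.22 (SE 0.11), which was not called. H3f3a was 1.41-fold higher in KO 0 h than in WT 0 h (log2 0.49, SE 0.11, edgeR adjusted p = 0.00969). That call was lost without WT 0 h replicate 1 (0.53, adjusted p = 0.05), WT 0 h replicate 2 (0.41, adjusted p = 0.203) or KO 0 h replicate 2 (0.36, adjusted p = 0.118), the last being the library with more symbols read.

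From 0 h to 2 h the change of H3f3a was -0.89 in the KO labels (SE 0.11, edgeR adjusted p = 3.49e-07) and -0.18 in the WT labels (SE 0.11, adjusted p = 0.168). The test of the difference itself gave -0.72 (SE 0.16, 95% interval -1.04 to -0.39, edgeR adjusted p = 0.0802), which was not called. Adjusted p for that difference ran from 0.0018 with no filter on low counts to 1 in the edgeR test against a fold of 1.5. It was 0.043 in DESeq2. With each library left out in turn the difference ran from -0.87 to -0.58, and whether it was called depended on the library left out. H3f3a was lower in KO 2 h than in WT 0 h (-0.40, adjusted p = 0.00357), and not so called without KO 2 h replicate 1 (-0.23, adjusted p = 0.126).

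Reads of H3f3b outnumbered those of H3f3a by 7.21 to 10.4 times in the 8 libraries. Per length, over the annotated exons of GENCODE M21, H3f3b had 186 RPKM, a level scaled by length and depth, in WT 0 h against 15.2 for H3f3a. Both genes have near-identical copies elsewhere in the genome and 14.1% to 17.0% of all reads were set aside as mapping to several places, so their levels are uncertain. H3f3a also shares 160 exonic bases with an antisense gene, H3f3aos, and 638 with an opposite-strand lincRNA, and whether the counting used strand is unstated. Cbx3, Ube2v2 and Casp8ap2 had the patterns most like H3f3a (0.09 to 0.10), and Ogfod1 and Cyb5b were among those most like H3f3b (0.05).

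Setd2 (Entrez Gene 235626, plus strand of chromosome 9 at 110532597 to 110618633), the enzyme that trimethylates lysine 36, was not called in any of the 7 comparisons. Its level was 157 and 148 CPM in WT 0 h, 159 and 177 in KO 0 h, 168 and 154 in WT 2 h, and 166 and 151 in KO 2 h, and all groups overlapped except the 2 at 0 h. The log2 fold change was 0.08 in the WT labels (95% interval -0.09 to 0.25) and -0.08 in the KO labels (95% interval -0.26 to 0.09). Scaling by library size alone turned the KO value to 0.0632 and called the WT value (0.22, adjusted p = 0.0285).

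Nsd1 (Entrez Gene 18193, plus strand of chromosome 13 at 55209782 to 55318325), a methyltransferase that adds the first and second methyl group, was read at a low level. It stood at 15.1 and 15.2 CPM in WT 0 h, 16.8 and 22.4 in KO 0 h, 11.3 and 9.56 in WT 2 h, and 11.6 and 10.4 in KO 2 h. The 2 h libraries lay below the 0 h libraries without overlap. The log2 fold change was -0.54 in the WT labels (SE 0.16, edgeR adjusted p = 0.00477) and -0.82 in the KO labels (SE 0.15, edgeR adjusted p = 8.09e-05). Without WT 2 h replicate 2 the WT change was no longer called (-0.39, adjusted p = 0.0967). At 0 h the genotype labels differed by 0.36 (SE 0.15, adjusted p = 0.162), called without KO 0 h replicate 1 (0.52, adjusted p = 0.0444). Acsl4, Thoc2 and Chml were most like it (0.05 to 0.07).

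Hira (Entrez Gene 15260, plus strand of chromosome 16 at 18877037 to 18970309), the chaperone of H3.3 in transcribed genes, was not called in any comparison, though KO 2 h against WT 0 h lay at the threshold (-0.18, 95% interval -0.35 to -0.02, edgeR adjusted p = 0.05001). That difference was called in a fit of the 4 libraries compared (adjusted p = 0.0369) and without KO 0 h replicate 1 (0.025) or KO 0 h replicate 2 (0.0258). The level of Hira was 97.1 and 101 CPM in WT 0 h, 102 and 94.3 in KO 0 h, 88.6 and 91.1 in WT 2 h, and 87.2 and 87.5 in KO 2 h, with every 2 h library a little below every 0 h library. The log2 fold change was -0.14 in the WT labels (95% interval -0.31 to 0.02, edgeR adjusted p = 0.124) and -0.17 in the KO labels (95% interval -0.34 to -0.0039, adjusted p = 0.071), and the KO value was called without KO 0 h replicate 2 (-0.23, adjusted p = 0.035). In GENCODE M21 a second gene model on the same strand, Gm28539, shares 2778 exonic bases with Hira, so its count depends on how the counting treated that overlap.

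Atrx (Entrez Gene 22589, minus strand of chromosome X at 105797615 to 105929403), the remodeller that works with DAXX, was lower under the 2 h labels. It stood at 291 and 282 CPM in WT 0 h, 337 and 366 in KO 0 h, 206 and 180 in WT 2 h, and 195 and 173 in KO 2 h. KO 0 h was highest, WT 0 h next, and the 2 h groups overlapped below them. The log2 fold change was -0.57 in the WT labels (SE 0.08, edgeR adjusted p = 3.24e-06) and -0.93 in the KO labels (SE 0.08, edgeR adjusted p = 1.86e-09), and the difference between these was -0.36 (95% interval -0.60 to -0.12, adjusted p = 0.249).

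At 0 h Atrx was 1.23-fold higher in the KO labels (log2 0.29, SE 0.08, edgeR adjusted p = 0.0468), a call at the edge of the threshold. It was lost without WT 0 h replicate 1 (adjusted p = 0.306), WT 0 h replicate 2 (0.392), KO 0 h replicate 2 (0.205), WT 2 h replicate 1 (0.0546) or WT 2 h replicate 2 (0.0552), and with the size factors of DESeq2 in edgeR (0.0537) or library size alone (0.0639). At 2 h the labels differed by -0.07 (adjusted p = 1). Srsf3, Fundc1 and Cep55 were most like it (0.04 to 0.05).

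Daxx (Entrez Gene 13163, plus strand of chromosome 17 at 33909414 to 33915590) encodes the H3.3 chaperone that partners ATRX, resides in PML nuclear bodies and is reported to be raised by type I interferon. It was the only one of the 10 genes called in all 6 comparisons of 2 groups. Its level was 24.7 and 25.2 CPM in WT 0 h, 42.7 and 40.8 in WT 2 h, 91.1 and 89.2 in KO 0 h, and 167 and 169 in KO 2 h. The 4 groups were fully separated in that order, and libraries of a group differed by little.

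Between genotype labels Daxx was 3.62-fold higher in KO at 0 h (log2 1.86, SE 0.09, edgeR adjusted p = 1.14e-13) and 4.02-fold higher at 2 h (log2 2.01, SE 0.08, edgeR adjusted p = 1.16e-14). These rank 225th and 129th by size among the 12807 genes. From 0 h to 2 h it was 1.68-fold higher in the WT labels (log2 0.75, SE 0.09, edgeR adjusted p = 1.70e-07) and 1.86-fold higher in the KO labels (log2 0.90, SE 0.08, edgeR adjusted p = 1.44e-09). The change with time did not differ between genotype labels beyond the test (0.15, 95% interval -0.09 to 0.40, adjusted p = 0.614). KO 0 h lay above WT 2 h by 1.11 and KO 2 h above WT 0 h by 2.75, a 6.73-fold difference. In each of the 6 comparisons Daxx was called under every alternative run, and its values there stayed between 0.72 and 0.88 for the WT change and between 1.97 and 2.02 for the 2 h labels.

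Between genotype labels Daxx went the same way as the interferon readout. The readout genes Ifit1, Isg15, Mx2, Usp18, Irf7 and Stat2 were all higher in the KO labels at 0 h and at 2 h. In the WT labels Ifit1 stood at 1.73 and 3.95 CPM at 2 h, and its log2 fold change was 0.44 without WT 2 h replicate 2. Isg15 did not share the order of Daxx, with 4.45 and 5.16 CPM in WT 0 h against 3.51 and 3.61 in WT 2 h. Stat2, a subunit of the interferon-activated transcription factor, had 14.7 and 14.6 CPM in WT 0 h, 27.4 and 28.5 in WT 2 h, 216 and 230 in KO 0 h, and 352 and 312 in KO 2 h, the same order of groups as Daxx. Usp18, a protease that removes ISG15, had 0.440 and 0.344 CPM in WT 0 h, 3.02 and 3.39 in WT 2 h, 50.3 and 50.5 in KO 0 h, and 123 and 106 in KO 2 h, again in that order. Of all genes, Ifi35 was closest to Daxx (0.08), with mean levels of 12.4, 20.9, 47.3 and 76.9 CPM in WT 0 h, WT 2 h, KO 0 h and KO 2 h, followed by Parp10 (0.19) and Herc6 (0.20). Ifi35, Parp10 and Herc6 are known interferon-induced genes.

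**Figure D3:**
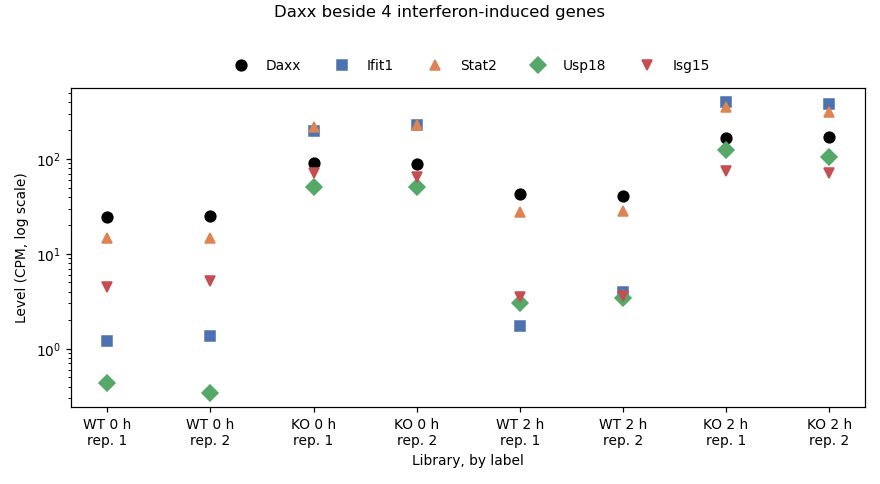
Level in CPM (vertical axis, log scale) of Daxx and 4 interferon-induced genes in each of the 8 libraries (horizontal axis, by label). Daxx rises in the order WT 0 h, WT 2 h, KO 0 h and KO 2 h from 24.7 to 169 CPM, over a narrower span than Ifit1, Stat2, Usp18 or Isg15.

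The promoter windows of Daxx, Ifit1 and Stat2 are printed because these genes had the same order of groups, with changes of unlike size. Each runs from 250 bases before to 50 bases after a RefSeq start in GRCm38.p6, 5′ to 3′ on the gene's strand, with matches to the core of the interferon-stimulated response element (TTTC, any 2 bases, TTTC) in capitals.
Daxx chr17:33909195-33909494 (+): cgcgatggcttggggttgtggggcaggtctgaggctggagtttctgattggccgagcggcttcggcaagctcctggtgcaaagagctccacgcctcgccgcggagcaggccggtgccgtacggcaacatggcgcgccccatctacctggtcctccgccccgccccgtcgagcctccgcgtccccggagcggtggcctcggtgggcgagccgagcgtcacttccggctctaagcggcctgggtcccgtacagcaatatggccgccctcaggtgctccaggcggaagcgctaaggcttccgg
Ifit1 chr19:34640639-34640938 (+): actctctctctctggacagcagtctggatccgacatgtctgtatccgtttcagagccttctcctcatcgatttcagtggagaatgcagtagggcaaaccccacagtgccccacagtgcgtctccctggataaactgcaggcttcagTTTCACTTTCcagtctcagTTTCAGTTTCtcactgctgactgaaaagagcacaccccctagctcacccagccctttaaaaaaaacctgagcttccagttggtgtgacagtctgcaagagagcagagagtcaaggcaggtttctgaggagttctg
Stat2 chr10:128270248-128270547 (+): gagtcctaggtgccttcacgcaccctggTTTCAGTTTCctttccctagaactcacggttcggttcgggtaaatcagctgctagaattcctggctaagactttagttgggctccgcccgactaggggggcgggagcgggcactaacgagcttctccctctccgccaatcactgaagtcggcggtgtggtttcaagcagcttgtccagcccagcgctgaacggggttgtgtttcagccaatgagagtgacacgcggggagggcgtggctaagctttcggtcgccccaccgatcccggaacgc

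Ifit1 holds 2 matches, Stat2 holds 1, and the 3 windows of Daxx hold 0. Among other readout genes, the window of Isg15 holds 3 matches and that of Irf7 holds 0. Both strands were searched for this core and for the core of the gamma-activated site, TTCNNNGAA, each counted on its own. Of the 10 genes, 9 had a window in the RefSeq table (Nsd1 had none), and 0 of the 9 held either motif in any window. Among 32851 mouse windows of 300 bases, 3.44% hold the first motif and 8.3% the second. A missing match says only that these letters are not in these windows.

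Asxl1 (Entrez Gene 228790, plus strand of chromosome 2 at 153345829 to 153404007) is the partner of the histone H2A deubiquitinase BAP1. It stood at 115 and 126 CPM in WT 0 h, 128 and 117 in KO 0 h, 138 and 139 in WT 2 h, and 141 and 126 in KO 2 h, so the KO groups overlapped and the WT groups did not. The WT change was 0.21 on the log2 scale (SE 0.08, edgeR adjusted p = 0.0357) and the KO change 0.12 (SE 0.08, adjusted p = 0.222), with a difference between them of -0.09 (adjusted p = 0.798). The WT call was lost without WT 0 h replicate 1 (0.13, adjusted p = 0.367), WT 0 h replicate 2 (0.26, 0.0587), WT 2 h replicate 1 (0.25, 0.0599) or WT 2 h replicate 2 (0.23, 0.0788). Asxl1 shares 197 exonic bases with an opposite-strand transcript, 2500004C02Rik. Tnrc6c, B3galnt2 and Acvr1b were most like it (0.04 to 0.05).

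**Figure D4:**
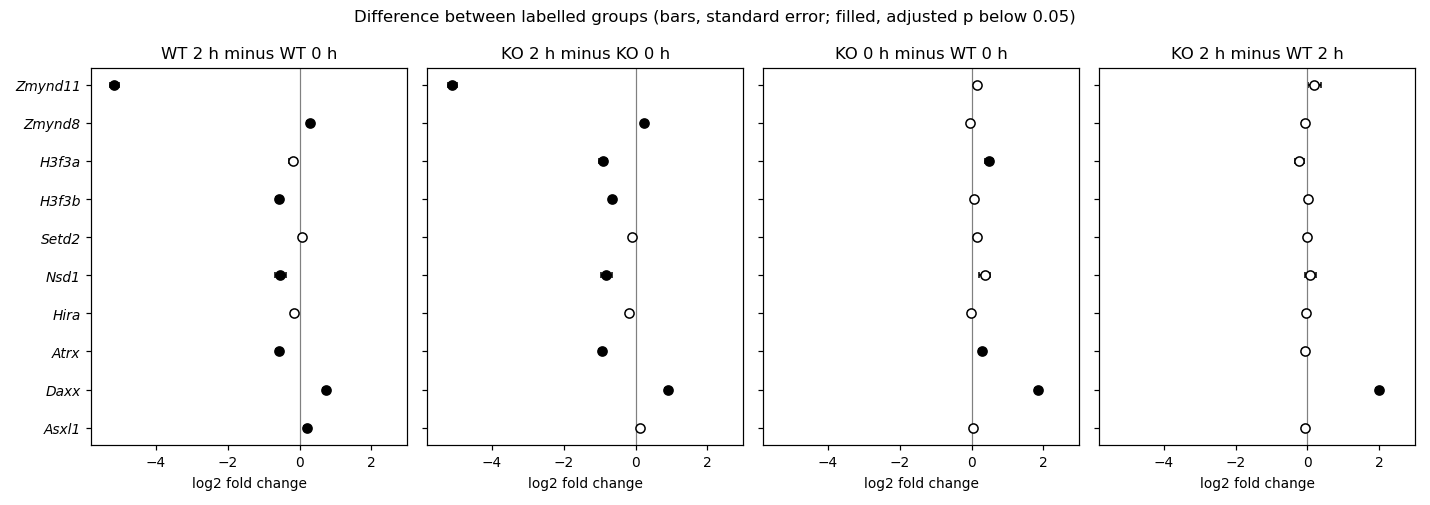
Log2 fold change of each of the 10 genes (rows) in 4 comparisons of labelled groups (panels), with bars for the standard error and filled points where the edgeR adjusted p is below 0.05. Zmynd11 stands near -5 in both comparisons of time and near 0 in both comparisons of genotype label, and Daxx stands at 1.86 and 2.01 in the latter.

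Per length, the order of levels in WT 0 h was H3f3b (186 RPKM), Zmynd11 (26.1), Zmynd8 (22.9), Atrx (22.5), Hira (21.0), Setd2 (18.3), Asxl1 (17.2), H3f3a (15.2), Daxx (8.79) and Nsd1 (1.11). The SDs over 2 libraries were 0.35 for Zmynd11, 0.17 for Zmynd8, 0.52 for Atrx and 0.65 for Hira, so that Zmynd8 and Atrx lay within their spread of each other. In KO 2 h, Daxx was second at 59.2 RPKM (SD 0.47) after H3f3b at 126 (SD 12), and Zmynd11 was at 0.859 (SD 0.21) beside Nsd1 at 0.806 (SD 0.07). These levels use the exons of GENCODE M21, whereas the gene model behind the counts is unstated.

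The other genes of the pathway are given by lists drawn up by function. Their counts between the time labels are to be read against all genes tested, of which 30.1% were higher and 31.1% lower at 2 h in the WT labels, and 30.0% and 31.2% in the KO labels. Among 9 methyltransferases reported to act on lysine 36, 1 was higher and 3 lower at 2 h in the WT labels, and 1 higher and 4 lower in the KO labels. Smyd2 fell by 0.56 (SE 0.08) and 0.54 (SE 0.08) on the log2 scale in the WT and KO labels, Whsc1 (also called Nsd2, an enzyme of dimethylation) fell by 0.48 and 0.63, and Setd5 rose by 0.30 in both. The list's median was -0.04 and -0.08, against 0.01 and -0.0053 for all genes tested. Of 6 lysine 36 demethylases tested, 2 were higher and 2 lower in the WT labels, and 2 higher and 1 lower in the KO labels. Kdm4a rose by 0.36 and 0.49, and Kdm8 fell by 0.66 and 0.74, the former not called without WT 2 h replicate 1 (-0.53, adjusted p = 0.0512).

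Of 19 readers of methylated lysine 36 tested, Zmynd11 and Zmynd8 included, 7 were higher and 8 lower at 2 h in the WT labels, and 7 higher and 9 lower in the KO labels. Phf1, a Tudor-domain partner of Polycomb repressive complex 2, rose by 1.19 (SE 0.13) and 1.56 (SE 0.13). Hdgfrp3, a PWWP protein, fell by 1.04 and 1.35, and Msh6, the mismatch repair protein with a PWWP domain, fell by 0.95 and 1.07. The reader median was 0.09 in the WT labels and -0.03 in the KO labels.

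Among 12 chaperones and remodellers of H3.3, 4 were higher and 5 lower at 2 h in the WT labels, and 4 higher and 6 lower in the KO labels, with medians of -0.11 and -0.18. Asf1b, a carrier of histone H3 and H4 in dividing cells, fell by 1.81 (SE 0.10) and 1.85 (SE 0.10), from 82.6 CPM (SD 1.46, n = 2) in WT 0 h to 23.6 (SD 1.38, n = 2) in WT 2 h. Nasp, another carrier, fell by 1.04 and 1.29, and Chd2, a remodeller of transcribed genes, rose by 1.08 and 1.01. Of 6 chaperones that serve DNA replication, 0 were higher and 5 lower in both labels by edgeR, by DESeq2 and at an unadjusted p below 0.05, with a median of -0.77 in each. Tonsl fell by 1.57 and 1.2, Chaf1b, a subunit of chromatin assembly factor 1, by 1.03 and 0.99, and Mcm2 by 0.89 and 0.84.

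Of 10 genes for histone variants and linkers tested, H3f3a and H3f3b included, 0 were higher and 6 lower in the WT labels, where an unadjusted p below 0.05 gave 1 and 6 and DESeq2 gave 0 and 6. The KO labels gave 1 higher and 7 lower, also at an unadjusted p below 0.05, while DESeq2 gave 0 and 7. Cenpa, the centromeric H3 variant, fell by 1.77 (SE 0.09) and 1.59 (SE 0.09), and the linker gene H1f0 by 1.53 and 1.5. The medians were -0.57 and -0.59.

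In the Asxl1 and Bap1 list of 11 genes, 5 were higher and 2 lower in both labels. Mbd6 rose by 1.44 (SE 0.10) and 1.65 (SE 0.10), and Asxl2, the paralogue of Asxl1, rose by 0.85 and 0.58. Of 15 genes of the Zmynd and MYND-domain family tested, 5 were higher and 3 lower in both labels. Runx1t1, a MYND-domain corepressor, rose by 1.40 and 1.0. Among 16 reported partners of ZMYND11 and ZMYND8, 2 were higher and 7 lower in the WT labels, and 2 higher and 5 lower in the KO labels, where DESeq2 gave 2 and 5, and 3 and 5. Eftud2, a spliceosomal GTPase, fell by 0.63 and 0.54, and the demethylase gene Kdm5c fell by 0.59 and 0.49. Of 16 elongation genes, 8 were higher and 1 lower in the WT labels, and 8 higher and 5 lower in the KO labels, beside the shares of all genes given above (30.1% higher and 31.1% lower, and 30.0% and 31.2%). Iws1, which links SETD2 to the elongating polymerase, rose by 0.99 and 0.67, and Rprd1a by 0.98 and 0.86.

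**Figure D5:**
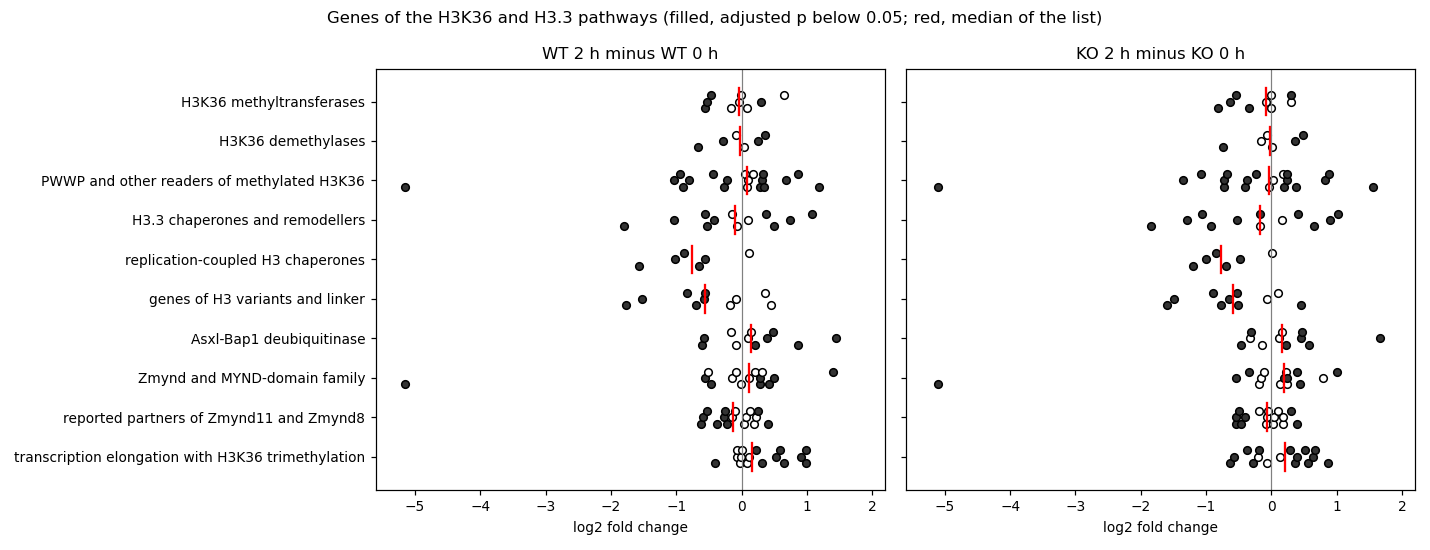
Log2 fold change of 2 h against 0 h (horizontal axis) for each tested gene of 10 lists (rows) in the WT labels (left) and the KO labels (right), filled where the edgeR adjusted p is below 0.05, with a red bar at the list's median. The 2 lists with the lowest medians are the replication-coupled chaperones (-0.77 in both panels) and the histone variants and linker (-0.57 and -0.59), and the isolated point near -5 is Zmynd11.

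Between genotype labels, 3.92% of all genes were called at 0 h and 1.60% at 2 h. Some genes stand in several lists, so no share over the lists together is given to set beside these. The genes of the lists gave the following calls. At 2 h it was Daxx alone, in edgeR and in DESeq2, while an unadjusted p below 0.05 gave 2 genes of the H3.3 chaperone list higher, 1 of the Asxl1 and Bap1 list lower and 0 in the other 8 lists. At 0 h edgeR called, beside H3f3a, Atrx and Daxx, the reader Psip1 (0.37), the chaperone Dek (0.46), Runx1t1 (0.64), Hdac2 (0.32), Tcea1 (0.43) and Iws1 (0.31) as higher in KO, and the variant gene H2afx (-0.36) as lower. Each of these 7 lost its call without WT 0 h replicate 1, with adjusted p between 0.0607 for Dek and 0.392 for Iws1. Without WT 0 h replicate 2 the call was lost for Psip1, Runx1t1, Hdac2, Iws1 and H2afx, and without KO 0 h replicate 2 for Runx1t1, Tcea1, Iws1 and H2afx. Hdac2 and Iws1 were also lost without KO 0 h replicate 1, and Hdac2 and H2afx without either WT 2 h library. Over all genes, the 502 calls at 0 h became 174 without WT 0 h replicate 1, 191 without WT 0 h replicate 2, 346 without KO 0 h replicate 2 and 1073 without KO 0 h replicate 1.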

How the data were processed

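RNA was extracted with TRIzol and paired-end libraries were sequenced on a HiSeq2000, per the labels' protocols. The authors deposited raw read counts per gene symbol, 1 table for each of 8 libraries; the submitters' processing notes name bcl2fastq 2.15, STAR 2.5.2b, HTSeq and the mouse build mm9, while the annotation and the use of strand are not given there. The 4 summary lines of each table (36.9% to 43.2% of its reads) stayed out of library sizes and tests.

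Counts were analysed in R 4.3.3 with edgeR 4.0.16: TMM factors, filterByExpr by group (minimum count 10, minimum total 15; 12807 genes kept), and robust quasi-likelihood fits of all 8 libraries with 1 coefficient for each of 4 groups, leaving 4 residual degrees of freedom. The 7 comparisons were adjusted by Benjamini-Hochberg, each over all genes, and called at 0.05. The fit was tested on simulated counts in which far fewer genes changed than were called between the time labels. That test therefore does not cover the scaling in those comparisons. Gene positions and lengths are from GENCODE M21 (GRCm38), not the mm9 build of the counts, and promoter sequences and gene order from RefSeq (GRCm38.p6). Libraries of a group differed by more than sampling noise (chi-square over degrees of freedom 3.04 to 9.64), so none was merged.

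The members and lists were chosen with earlier results of these data known. Named from each other list were at most 4 called genes a comparison, by the size of change, whose groups did not overlap and reached 1 CPM, of which the text gives a part; genes like a member were the nearest 5 for Zmynd11 and 3 for others; a gene that these rules would name is not reported here where it is withheld. Alternatives were RLE factors, library size alone, DESeq2 1.42.0, other filters, fits of only the 4 libraries of a comparison, the replicate number as a block, a minimum fold of 1.5 under test, and each library left out in turn.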

Additional observations from a re-analysis of the deposited data

How the results depend on the processing

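Of the 32 calls of the 10 genes, RLE factors kept 31, library size alone 30, DESeq2 32, no filter 31, a filter at 1 CPM in 2 libraries 32, the 4 libraries compared 32, the replicate block 30, the fold test at 1.5 14, and fits without a library 28 to 32, and none turned its direction. Deviations of replicate 1 correlated at -0.0533 to -0.0053 over genes between groups, so no effect shared by replicate number was seen. This cannot show whether libraries were made in pairs, since each deviation rests on 2 libraries and all genes weigh alike. With the replicate block, the genes called in KO against WT at 0 h went from 502 to 322, and 2 calls of the 10 genes were lost (Asxl1 in the WT labels, adjusted p = 0.0554, and Atrx at 0 h, 0.0731), with those of Hdac2 (0.0683), Iws1 (0.0744) and H2afx (0.0755) at 0 h among the other genes named. With 2 libraries a group and 4 residual degrees of freedom, small differences such as those of Asxl1 and Hira change their call with single libraries.

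In KO 0 h against WT 2 h, the lower members were 2 with RLE factors and with library size alone, and 0 against a fold of 1.5. No filter gave 809 genes called in KO against WT at 0 h and 113 for the difference of changes, where DESeq2 gave 33; both called 1 member lower there, H3f3a. Against a fold of 1.5 the genes called were 2939 (WT 2 h against 0 h), 3012 (KO), 110 (0 h labels), 111 (2 h labels), 3090 (KO 2 h against WT 0 h), 2976 (KO 0 h against WT 2 h) and 5 (difference of changes). The members then called higher and lower were 1 and 1 in WT, 1 and 3 in KO, 1 and 1 in KO 2 h against WT 0 h, and 1 higher at 0 h; the cause is the larger effect that test asks for.

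Values that turned their sign were all of uncalled members. Library size alone gave Setd2 0.0632 (KO change) and -0.0994 (KO 0 h against WT 2 h), Hira -0.0309 (the same) and H3f3b -0.0034 (2 h labels), and no filter gave H3f3b -0.0026 (2 h labels). Leaving out a library moved these across 0, lowest to highest. In KO 2 h against 0 h, Setd2 (-0.13 to 0.0035). In KO against WT at 0 h, Hira (-0.11 to 0.0347), Asxl1 (-0.0811 to 0.0849). In KO against WT at 2 h, Zmynd11 (-0.0471 to 0.46), H3f3b (-0.10 to 0.0943), Setd2 (-0.10 to 0.0299), Nsd1 (-0.0417 to 0.20), Atrx (-0.17 to 0.0149), Asxl1 (-0.15 to 0.0094). In KO 0 h against WT 2 h, Setd2 (-0.0335 to 0.11). In the difference of changes, Zmynd11 (-0.19 to 0.31), Zmynd8 (-0.12 to 0.0134), H3f3b (-0.18 to 0.013), Hira (-0.0755 to 0.0734), Asxl1 (-0.18 to 0.0231).

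Leaving out each library, the genes called in KO against WT at 0 h were 174 to 1073 and the members higher 1 to 4. The members higher were 1 to 2 in the KO change and 1 to 3 in KO 2 h against WT 0 h, those lower 1 to 2 in KO 0 h against WT 2 h, and the difference of changes had 6 to 91 genes and 0 to 1 member lower. Other causes were not tested.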
